A study of Homo sapiens with 6 samples.

Results

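The genes described here encode the inhibitors of cyclin-dependent kinases and the G1 kinases that they hold in check: CDKN1A (p21) and CDKN1B (p27) of the CIP/KIP family, CDKN2B (p15), CDKN2C (p18) and CDKN2D (p19) of the INK4 family, the D cyclin genes CCND1 and CCND3, the kinase genes CDK4 and CDK6, and RBL2, which encodes the pocket protein p130. These 10 genes were taken by name, with every probe that carries 1 of their symbols. They have 14 of the 47321 probes of the array. Of the 10 genes, 8 were among the 12013 genes tested. The 3 probes of CDKN2B were detected in 0 of 6 arrays, and CDKN2C was not analysed here, since no probe carries its symbol in the annotation used. Expression was measured in U2OS, a human osteosarcoma cell line, 6 days after transfection with siCCAR2, 4 pooled siRNAs directed at CCAR2 (arrays D, E and F), or with a control siRNA, named siLUC in the methods and siCTRL in the labels (arrays A, B and C). Each array is 1 RNA sample. A legend in the supplement, on cells harvested for expression analysis, says that the silencing experiment was repeated in triplicate, and each condition has 3 arrays. Neither the legend nor the labels tie an array to a repeat. The p-values therefore measure the spread between these samples, which may be technical. All 6 arrays lay on 1 Human HT12_v4 chip with the conditions in separate sections, and an effect of position cannot be told apart from one of silencing.

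Cells pass from G1 into S phase when cyclin D with CDK4 or CDK6, and then cyclin E with CDK2, phosphorylate the retinoblastoma protein and its relatives, which releases E2F transcription factors. INK4 proteins bind CDK4 and CDK6 themselves and keep cyclin D away, whereas p21 and p27 bind complexes of a cyclin with its kinase, block CDK2 and also help cyclin D assemble with CDK4. The level of p21 is set largely by transcription, with p53 as its best known activator, and that of p27 largely by degradation through the SKP2 ubiquitin ligase and by FOXO factors at its promoter. In quiescent cells p130, bound to E2F4 and the MuvB proteins, represses cell cycle genes.

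The promoters of the pair of genes that passed both thresholds in 1 of the fits below are shown because those calls have opposite directions. They are the 250 bases before the start in the RefSeq table for GRCh38.p14, 5′ to 3′ on the strand of the gene, with each GGGCGG in capitals, the core of the GC box bound by SP1 and SP3. CDKN1A lies at chr6:36678464-36678713 on the plus strand and CDKN1B at chr12:12717118-12717367 on the plus strand.
CDKN1A: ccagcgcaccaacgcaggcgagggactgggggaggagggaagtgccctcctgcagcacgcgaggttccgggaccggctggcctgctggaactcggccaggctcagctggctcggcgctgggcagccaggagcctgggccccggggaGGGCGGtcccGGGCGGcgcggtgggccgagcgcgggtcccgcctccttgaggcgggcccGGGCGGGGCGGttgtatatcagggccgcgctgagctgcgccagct
CDKN1B: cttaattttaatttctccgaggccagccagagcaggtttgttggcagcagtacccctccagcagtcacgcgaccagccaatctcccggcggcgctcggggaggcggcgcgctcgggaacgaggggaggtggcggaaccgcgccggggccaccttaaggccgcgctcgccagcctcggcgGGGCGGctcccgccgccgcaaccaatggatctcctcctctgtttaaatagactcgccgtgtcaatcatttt
The CDKN1A promoter held 4 matches, whose first bases lie 104, 94, 45 and 40 bases before the start, and the last 2 of these overlap. The CDKN1B promoter held 1, at 71 bases. GGGCGG was searched on both strands and stood in 42.6% of the 35116 promoters of the table. It stood in at least 1 promoter of 8 of the 9 member genes with an entry, the exception being RBL2. This count by gene cannot be set against the share by promoter, since CDKN2C, CCND3, CDK6 and RBL2 have more than 1 promoter there. CDKN2C, CCND3 and CDK6 each also have a promoter with no match. The FOXO motif GTAAACA (2.98% of all promoters), the E2F motifs TTTCGCGC, TTTGGCGC and TTTCCCGC (2.32%), the CHR element TTTGAA (13.3%) and the TATA box TATAAA (10.7%), also searched on both strands, had 0 matches in the promoters of these 9 genes. A match of letters is a description and does not show that a factor binds.

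CCAR2, the silenced gene, fell 2.54-fold in siCCAR2 cells (-1.34 on the log2 scale, limma adjusted p = 0.0394). Of the osteoblast lineage genes looked up for U2OS, RUNX2, SPARC, COL1A1, ALPL and SPP1 were detected in 6 of 6 arrays and COL1A2 in 0. SPARC was itself 3.26-fold lower in siCCAR2 cells (limma adjusted p = 0.0394), a larger fall than that of CCAR2. The epithelial gene EPCAM was detected in 6 arrays, the endothelial gene PECAM1 in 1, and CDH1, PTPRC, CD3E and CDH5 in 0. Each array detected 37.2% to 41.0% of the probes, where detection means a p-value under 0.01 against negative control beads.

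Of the inhibitors, the p21 message was 1.51-fold higher and the p27 message 1.70-fold lower in siCCAR2 cells. Of the INK4 genes only CDKN2D was measurable, and it was 1.24-fold lower. Among the kinases CDK6 was 1.42-fold lower and CDK4 1.15-fold lower, and the D cyclins CCND1 and CCND3 lay 1.04-fold and 1.23-fold higher. How firmly these values are held depends on whether arrays are paired. Without pairs, limma called 0 of the 8 members (a call needs a fold of 1.5 or more together with an adjusted p no higher than 0.05), beside 3 of all 12013 genes (0.025%), and 3 members had an unadjusted p under 0.05 (1 higher, 2 lower), beside 6.49% of all genes. With a replicate block on the pairs D and A, E and B, F and C, limma called 2 members, CDKN1A higher and CDKN1B lower, beside 200 genes (1.66%), and 5 members had an unadjusted p under 0.05 (2 higher, 3 lower), beside 17.3% of all genes. The pairing was chosen as that of the 6 possible ones whose arrays deviate together most, and p-values with the block do not allow for that choice. With the other 5 pairings limma called 0 members, and 3 members had an unadjusted p under 0.05 with each of them, beside 3.16% to 9.88% of all genes (380 to 1187). The siCCAR2 arrays were all above the siLUC arrays for 1 of the 8 members (6.35% of all genes) and all below them for 3 (5.68% of all genes).

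**Figure D1:**
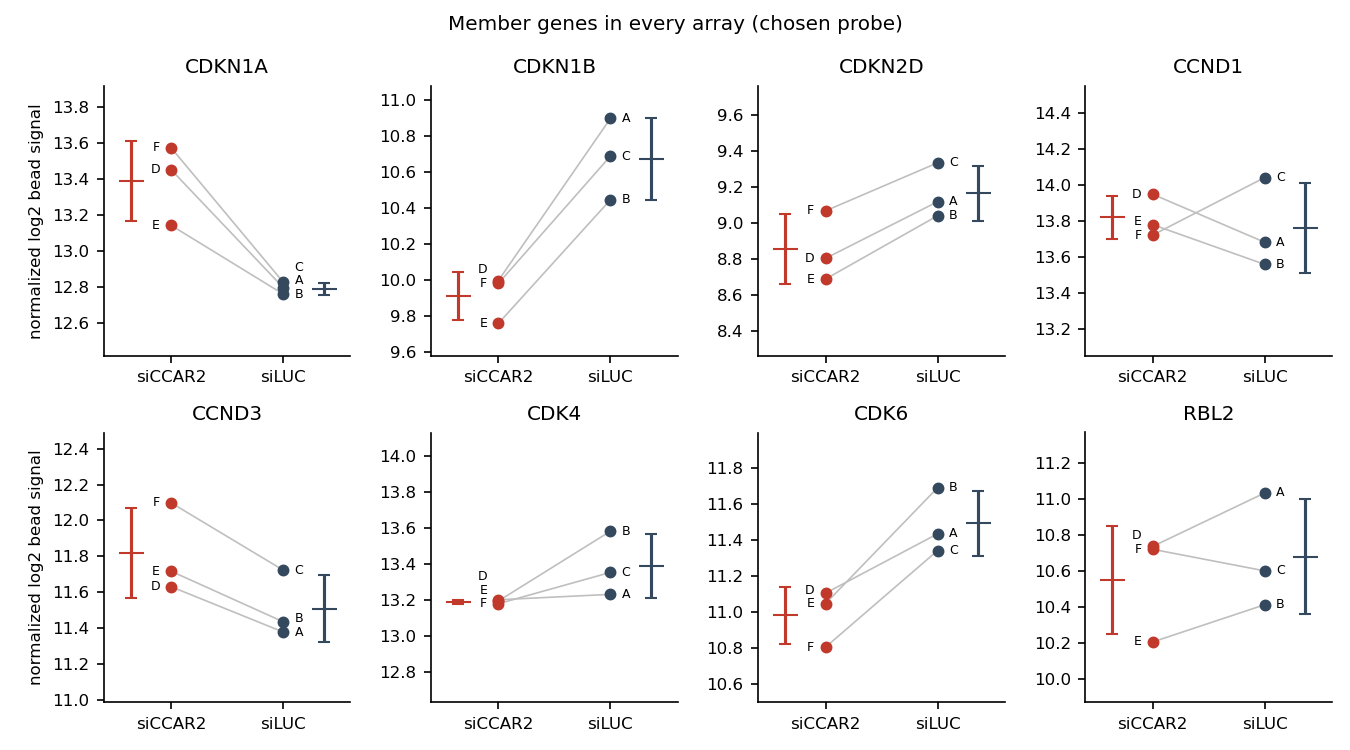
Normalized log2 bead signal of the 8 member genes tested, in siCCAR2 arrays (D, E, F, red, left) and siLUC arrays (A, B, C, dark, right), with mean and SD beside the points and grey lines joining the pairs of the block. Each panel spans the same 1.5 log2 units, and the groups are apart in CDKN1A (higher in siCCAR2) and in CDKN1B, CDK4 and CDK6 (lower in siCCAR2).

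CDKN1A encodes p21, which inhibits CDK2 and binds the replication clamp PCNA. The bead signal of the probe used in the test, ILMN_1784602, was 10470, 10400 and 10410 in siCCAR2 arrays D, E and F and 7474, 6468 and 8396 in siLUC arrays A, B and C. After log2 transformation and quantile normalization it was 13.45, 13.14 and 13.57 in siCCAR2 and 12.80, 12.76 and 12.83 in siLUC. Before normalization the siCCAR2 arrays were nearly equal and the siLUC arrays spread, and after it the reverse held, while the groups stayed apart on both scales. The means were 13.39 ± 0.22 in siCCAR2 and 12.79 ± 0.03 in siLUC (SD, n = 3 arrays each), a log2 fold change of 0.59 with a 95% interval of 0.26 to 0.93 and an adjusted p of 0.657 from limma. With the block CDKN1A rose (adjusted p = 0.0245 from limma), by 0.65, 0.38 and 0.75 in the 3 pairs. CDKN1A was just past the fold threshold, as its fold of 1.51 shows.

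The second probe, ILMN_1787212, which is annotated to another transcript of CDKN1A, had bead signals of 239, 213 and 221 in siCCAR2 and 184, 155 and 175 in siLUC. Its groups did not overlap either. Its log2 fold change was 0.47 (adjusted p = 0.771 without the block and 0.0583 with it, from limma over all detected probes), so both probes lay higher in siCCAR2 cells but only the first one passed. Their changes differed by 0.13 on the log2 scale (exact permutation test, two-sided, p = 0.2, and 0.233 after Benjamini-Hochberg adjustment over the 7 differences tested between probes or genes). The second probe lay near background, with a detection p of 0.00779 in array B, and no background was subtracted. The sizes of the 2 changes are therefore not directly comparable. The call of CDKN1A with the block ended without arrays D and A (adjusted p = 0.255), without F and C (0.079), under neqc background correction (0.0914) and under median scaling (0.451), all from limma. The log2 fold change of the first probe stayed between 0.49 and 0.73 over the alternatives tried.

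CDKN1B encodes p27, the inhibitor best known for holding CDK2 in quiescent cells. The bead signal of its probe ILMN_2196347 was 946, 977 and 839 in siCCAR2 arrays and 2039, 1246 and 1967 in siLUC arrays. The normalized log2 signal was 9.99, 9.76 and 9.98 in siCCAR2 and 10.90, 10.44 and 10.69 in siLUC, and the groups did not overlap. The means were 9.91 ± 0.13 in siCCAR2 and 10.67 ± 0.23 in siLUC (SD, n = 3 each), a log2 fold change of -0.77 with a 95% interval of -1.12 to -0.41 (adjusted p = 0.486 from limma). It ranked 20th of all genes by p without the block and 53rd with it. With the block CDKN1B fell (adjusted p = 0.00377 from limma), by 0.90, 0.69 and 0.71 in the 3 pairs.

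The other probe of CDKN1B, ILMN_1722811, annotated to the same transcript, gave a smaller change. Its bead signal was 614, 607 and 592 in siCCAR2 arrays and 1009, 700.4 and 794 in siLUC arrays. Apart before normalization, the groups overlapped after it, since array F (9.46) lay above array C (9.38). Its log2 fold change was -0.32 (adjusted p = 0.803 without the block and 0.251 with it, from limma over all detected probes), and within pairs it was -0.50, -0.52 and 0.07. The change of the first probe was larger than that of the second by 0.45 on the log2 scale, and the difference between both probes was lower in all 3 siCCAR2 arrays than in any siLUC array (exact permutation test, two-sided, p = 0.1, the lowest that 3 arrays against 3 allow, adjusted 0.14). For a gene with several probes detected in as many arrays, the test used the one with the highest interquartile range, a rule that takes the more variable probe. The call of CDKN1B with the block ended without arrays D and A (adjusted p = 0.0977) and after neqc (0.0512), and array quality weights gave it an adjusted p of 0.0446 without the block.

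**Figure D2:**
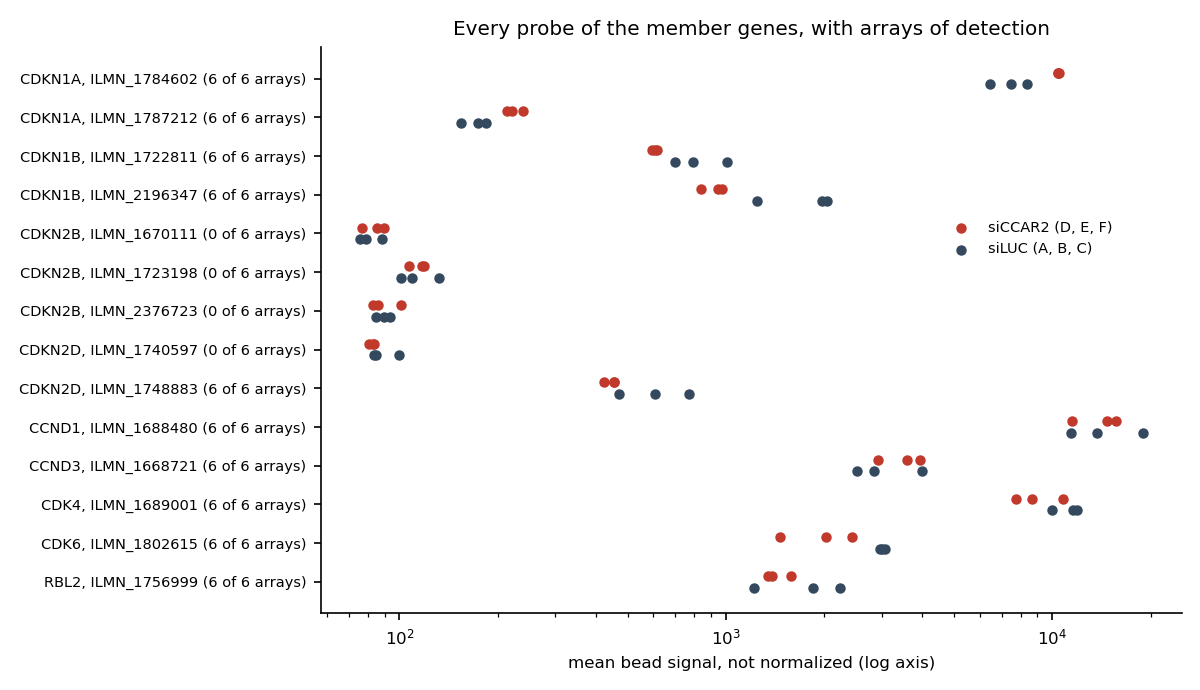
Mean bead signal before normalization, on a log axis, of the 14 probes of the member genes in siCCAR2 arrays (red, upper points of a row) and siLUC arrays (dark, lower points), with the number of arrays that detected each probe. The 3 CDKN2B probes and 1 CDKN2D probe were detected in 0 arrays, and CDKN1A probe ILMN_1784602 and CDKN1B probe ILMN_2196347 are apart in opposite directions.

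Set against each other within an array, which removes any factor shared by both genes, the difference of p21 and p27 signals was larger in each siCCAR2 array than in any siLUC array. The log2 signal of CDKN1A minus that of CDKN1B was 3.46, 3.39 and 3.60 in siCCAR2 arrays and 1.90, 2.32 and 2.14 in siLUC arrays. These levels come from different probes and only their change is read. The mean was 3.48 ± 0.11 in siCCAR2 and 2.12 ± 0.21 in siLUC (SD, n = 3 each), a difference of 1.36 or 2.57-fold (exact permutation test, two-sided, p = 0.1, the lowest possible, adjusted 0.14). CDKN1A lay higher and CDKN1B lower in every siCCAR2 array. The separation of their difference and its p were thus fixed by the single genes and add no evidence. Without 1 array, or after another normalization, this difference was between 1.255 and 1.54. The choice of probe moved the difference further: it was 0.91 with the other CDKN1B probe, 1.23 with the other CDKN1A probe and 0.78 with the other probes of both genes, with the groups apart in each (alternatives chosen after seeing the data). With the other CDKN1A probe alone this separation was fixed as well, since the groups of that probe did not overlap.

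The INK4 proteins bind CDK4 and CDK6 only. CDKN2D, which encodes p19, had a normalized log2 signal of 8.80, 8.69 and 9.07 in siCCAR2 arrays and 9.12, 9.04 and 9.33 in siLUC arrays at its detected probe, ILMN_1748883. Array F lay above array B in this gene, so the groups overlapped. Each siCCAR2 array nevertheless lay below the siLUC array set with it in the block, by 0.27 to 0.35. The log2 fold change was -0.31, with a 95% interval of -0.66 to 0.04 (adjusted p = 0.784 from limma, and 0.194 with the block). The other probe of CDKN2D and the 3 probes of CDKN2B had bead signals of 77.05 to 119 in siCCAR2 arrays and 75.9 to 132 in siLUC arrays and detection p-values of 0.0221 or more. No change can be read from probes that are not above negative control beads.

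The contrast of p21 and p27 with INK4 genes rests on CDKN2D. CDKN1A minus CDKN2D was higher in each siCCAR2 array than in any siLUC array, with a difference of 0.91, and CDKN1B minus CDKN2D was lower in every siCCAR2 array, with a difference of -0.45 (exact permutation test, two-sided, p = 0.1 for each, the lowest possible, adjusted 0.14). The second of these rests on the probe of CDKN1B: with its other probe, the difference from CDKN2D was -0.0045 on the log2 scale and the groups overlapped. With the other CDKN1A probe the first difference was 0.78 and the groups stayed apart.

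CCND1 and CCND3 encode the D cyclins that activate CDK4 and CDK6. CCND1 had a normalized log2 signal of 13.95, 13.78 and 13.72 in siCCAR2 arrays and 13.68, 13.56 and 14.04 in siLUC arrays. The groups overlapped, with array C the highest of all 6, and its pairs differed by 0.27, 0.22 and -0.32. The log2 fold change was 0.06, with a 95% interval of -0.31 to 0.42 (adjusted p = 0.96 from limma), an interval that leaves out a 1.5-fold change either way. With median scaling alone its sign turned, to -0.06.

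CCND3 was 11.63, 11.72 and 12.10 in siCCAR2 arrays and 11.38, 11.44 and 11.72 in siLUC arrays, on the same log2 scale. Each siCCAR2 array was above the siLUC array set with it in the block, by 0.25, 0.28 and 0.37, but arrays D and E lay below array C. The log2 fold change was 0.30, with a 95% interval of -0.08 to 0.69 (adjusted p = 0.809 from limma, and 0.21 with the block), and it was 0.16 without array F and 0.17 with median scaling. The change of CCND3 exceeded that of CCND1 by 0.25 (exact permutation test, two-sided, p = 0.3, adjusted 0.3).

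CDK4 and CDK6 encode the kinases that both families of inhibitors bind. The bead signal of CDK6 was 2030, 2429 and 1468 in siCCAR2 arrays and 2977, 3006 and 3081 in siLUC arrays. Its normalized log2 signal was 11.10, 11.04 and 10.80 in siCCAR2 and 11.43, 11.69 and 11.34 in siLUC, with every siCCAR2 array below every siLUC array. The log2 fold change was -0.50, with a 95% interval of -0.85 to -0.16 (adjusted p = 0.767 from limma). With the block the adjusted p was 0.0493, so that CDK6 missed the fold threshold but not the other one. This p was above 0.05 with the other 5 pairings (0.359 or more) and without any 1 of the 3 pairs (0.0751 to 0.201). It was also above 0.05 under neqc (0.163) and median scaling (0.211), with the deposited normalized table (0.0505) and with detection in at least 3 arrays (0.0514).

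CDK4 had a normalized log2 signal of 13.20, 13.19 and 13.18 in siCCAR2 arrays, with an SD of 0.01, and of 13.23, 13.58 and 13.35 in siLUC arrays. The groups did not overlap, but array A was only 0.03 above array D. The log2 fold change was -0.20, with a 95% interval of -0.51 to 0.12 (adjusted p = 0.832 from limma, and 0.443 with the block), and it was -0.10 without array B. CDK6 minus CDK4 was lower in siCCAR2 by 0.31 on the log2 scale (exact permutation test, two-sided, p = 0.1, the lowest possible, adjusted 0.14).

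RBL2, which encodes p130, was 10.74, 10.21 and 10.72 in siCCAR2 arrays and 11.03, 10.41 and 10.60 in siLUC arrays. Arrays E and B, set as a pair in the block because they deviate together over all genes, were the lowest of their conditions. The groups overlapped. The log2 fold change was -0.13, with a 95% interval of -0.60 to 0.35 (adjusted p = 0.923 from limma), and it turned positive, to 0.05, without array A or without array E.

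**Figure D3:**
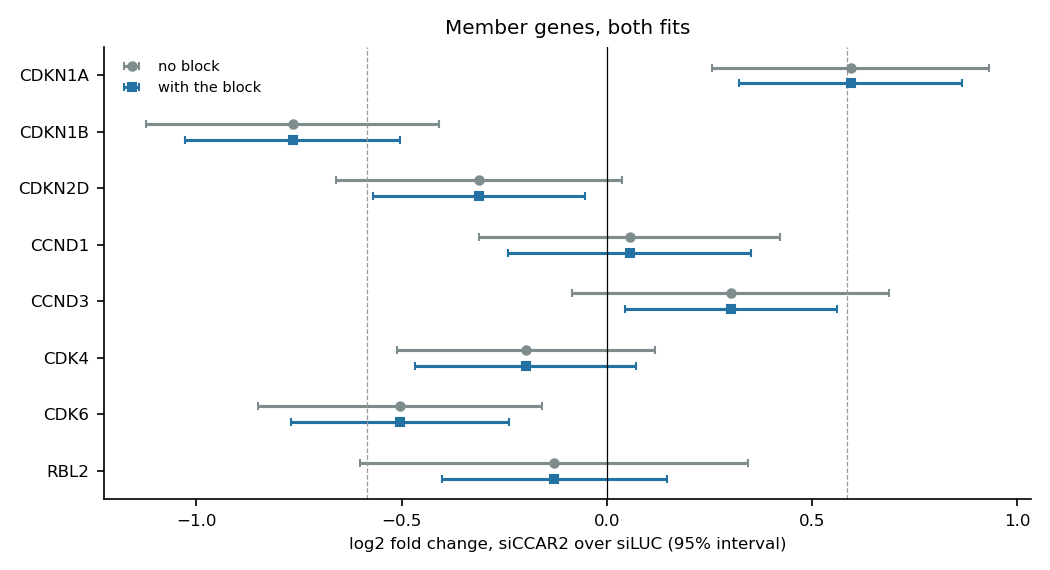
Log2 fold change of siCCAR2 over siLUC with its 95% interval for the 8 member genes tested, from limma without the block (grey circles) and with it (blue squares), and dashed lines at a fold of 1.5 either way. CDKN1A at 0.59 and CDKN1B at -0.77 lie past the dashed lines, and CDK6 at -0.50 lies inside them with both its intervals below 0.

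The remaining genes of the G1/S pathway were read in lists by role. In limma 0 of their 92 genes tested passed without the block and 1, FBXO4, with it (fold and adjusted p, 0.025% and 1.66% of all genes), while 9 and 18 had an unadjusted p under 0.05 (6.49% and 17.3% of all genes). The median over all genes was 0.00 on the log2 scale, with 6110 genes above 0 and 5903 below. FBXO4, an F-box protein reported to recognise cyclin D1 for degradation, had a normalized log2 signal of 7.30, 7.28 and 7.35 in siCCAR2 arrays and 7.996, 7.77 and 8.03 in siLUC arrays. The groups were apart. With the block it fell by 0.62 on the log2 scale (adjusted p = 0.0144 from limma, and 0.486 without the block). Under neqc the log2 fold change of FBXO4 was -0.97 (adjusted p = 0.0253 from limma with the block), so its size at this low signal depends on background correction. Its other detected probe gave -0.40, and when the probe with the higher mean signal was taken the adjusted p was 0.109. The call also ended with the other 5 pairings (adjusted p of 0.196 or more), with median scaling alone (0.147) and without arrays D and A (0.213), and without F and C only the fold was missed (log2 fold change of -0.58).

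Of the 16 genes of ubiquitin ligases for p27, p21 and cyclin D, 6 lay above 0 and 10 below, with a median log2 fold change of -0.02 (-0.09 without array A and -0.18 with median scaling). SKP2, the F-box protein that recognises p27, lay at 0.02 on the log2 scale (limma adjusted p = 0.994). DTL, the adaptor of the ligase that degrades p21 in S phase, had -0.43 with the groups apart, and the scaffold CUL1 -0.15 (adjusted p = 0.138 and 0.559 from limma with the block).

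Outside the members, 2 genes of the inhibitor and cyclin D families were detected. CCND2, the third D cyclin gene, had a normalized log2 signal of 12.54, 11.96 and 12.24 in siCCAR2 arrays and 12.08, 11.36 and 11.71 in siLUC arrays, with overlapping groups. Its log2 fold change of 0.53 missed the fold threshold, although its adjusted p with the block was 0.0345 (limma). It was 0.22 without arrays F and C (adjusted p = 0.813), 0.14 with median scaling (0.897) and 0.25 at the probe of higher mean signal (0.314), and that p was also above 0.05 without D and A (0.232), under neqc (0.139) and with the other 5 pairings (0.371 or more). CDKN1C, which encodes p57 of the CIP/KIP family, lay at -0.32 on that scale (limma adjusted p = 0.196 with the block), and CDKN2A was detected in 0 arrays.

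Of the 8 genes of cyclin E, CDK2 and CDK activation tested, 4 lay on each side of 0 and the median was 0.04 (0.15 without array B, -0.11 without E and -0.14 with median scaling). The genes of the CDK-activating kinase lay on both sides of 0: its cyclin gene CCNH had a log2 fold change of 0.36 and its assembly factor MNAT1 -0.27, both with the groups apart. CDC37, the co-chaperone that brings CDK4 to HSP90, had 0.25. The adjusted p with the block was 0.139, 0.269 and 0.329 for these genes (limma), so none passed.

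Downstream of the kinases, 9 of 12 genes of the pocket proteins, E2F and DP factors lay below 0, with a median of -0.03 (-0.09 without array A or C, -0.08 without E and -0.17 with median scaling). RB1, the retinoblastoma gene, had -0.28, and E2F7 and E2F2 had -0.20 and -0.23. Of the 7 genes of DREAM and MuvB, the complex that p130 joins, 5 lay below 0 with a median of -0.17 (-0.07 without array D). The histone-binding subunit RBBP4 had -0.34, LIN54, the subunit that binds DNA, -0.23, and LIN9 -0.19. The adjusted p of these 6 genes was between 0.269 and 0.477 in limma with the block.

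**Figure D4:**
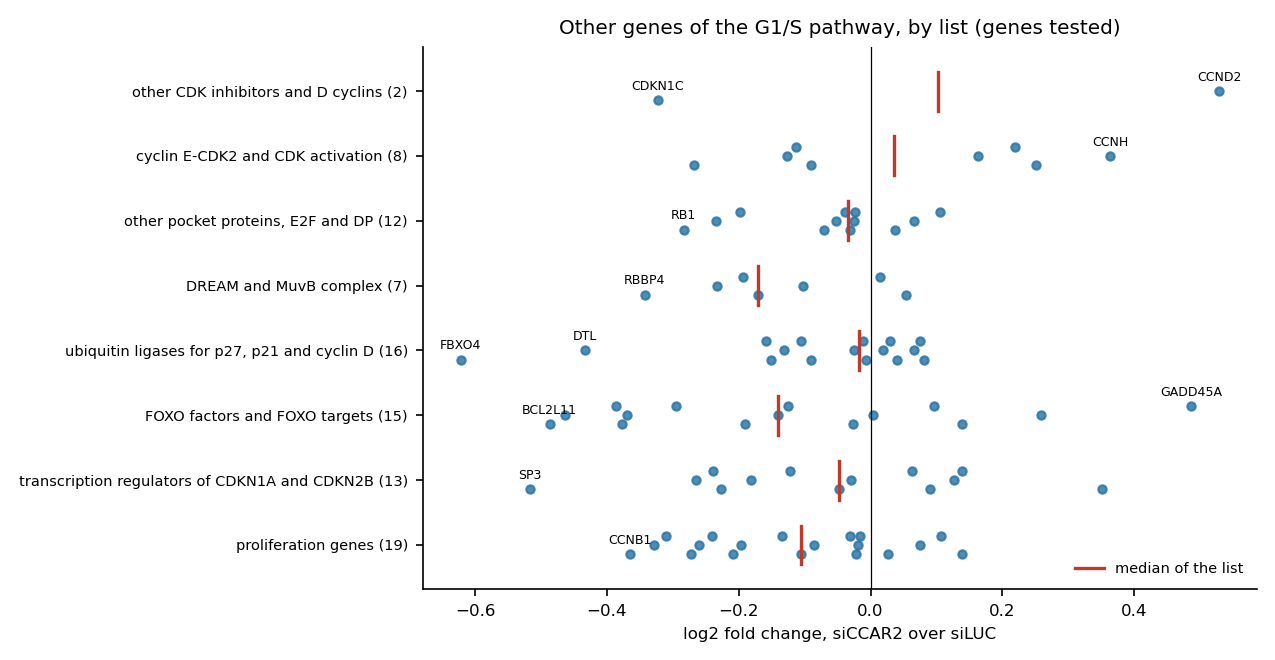
Log2 fold change of siCCAR2 over siLUC (no block) of the other G1/S genes tested, 1 point a gene, by list with the number of genes in brackets and a red bar at the median of each list. Most genes lie within 0.4 of 0 on the log2 scale, and FBXO4 at -0.62 is the point farthest from it.

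Genes that act on the transcription of the inhibitors were also read. SP3, which binds GC boxes such as those in the CDKN1A promoter shown above, had a normalized log2 signal of 9.71, 9.76 and 9.69 in siCCAR2 arrays and 10.16, 10.19 and 10.37 in siLUC arrays. The groups were apart and the log2 fold change was -0.52, short of the fold threshold (adjusted p = 0.652 from limma, and 0.0418 with the block). The p with the block was above 0.05 without arrays D and A (0.259) or F and C (0.221), under neqc (0.139) and median scaling (0.618), with the other 5 pairings (0.304 or more) and at the probe of higher mean signal (log2 fold change of -0.33, adjusted p = 0.301). SP1, which binds the same box, had -0.26, and SMAD4, the partner of the SMAD factors that act on CDKN2B and CDKN1A, -0.23, both with the groups apart (adjusted p = 0.289 and 0.362 with the block). Of the 13 such regulators tested, 5 lay above 0 and 8 below. Their median was -0.05 (0.05 without array F, and -0.12 without C, without E or with median scaling).

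Of the 15 FOXO factors and targets tested other than CDKN1B and RBL2, 5 lay above 0 and 10 below, and the median was -0.14. BCL2L11, the pro-apoptotic BIM gene, had a log2 fold change of -0.49, GADD45A, a growth arrest gene that p53 also activates, 0.49, and CCNG2, a cyclin of arrested cells, -0.39. Their adjusted p with the block was 0.0741, 0.0674 and 0.138 (limma). The median of this list was -0.35 without array D, -0.01 without A, 0.05 without C and 0.07 without E, so that its sign rests on single arrays.

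Of 19 proliferation genes, 15 lay below 0 and 4 above, beside 5903 and 6110 of all 12013 genes. The median of the list was -0.11 (-0.06 without array A, and -0.31 with median scaling, which put the median of all genes at -0.11). In either limma fit 0 passed, and 3 were lower at an unadjusted p under 0.05. Of all genes, 361 were lower at that p without the block and 983 with it. The mitotic cyclin gene CCNB1 lay at -0.37 on the log2 scale, the spindle checkpoint kinase gene BUB1 -0.33 and TYMS, thymidylate synthase, -0.31. These 3 genes were named for having the smallest p of the list. In them, and in PLK1 of the same list, every siCCAR2 array lay below every siLUC array (5.68% of all genes). The adjusted p of CCNB1, BUB1 and TYMS with the block was 0.134, 0.193 and 0.201 (limma). In extracts of whole cultures, fewer cells in a phase of the cycle and less RNA per cell cannot be told apart.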

How the data were processed

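The authors deposited the mean bead signal of each probe, a non-normalized intensity on a linear scale, and its detection p-value for 6 arrays of U2OS cells. The labels name BeadStudio 3.8. A second deposited table holds quantile-normalized intensity and served as an alternative. Signals were taken to log2 and quantile normalized, with no background correction (the robust spline normalization of the methods was not run). Of 47321 probes, 30112 carry 1 symbol. As in the methods, probes with a detection p under 0.01 in at least 1 array were kept, and per gene the probe detected in most arrays, then that of highest interquartile range. siCCAR2 was compared with siLUC by lmFit and eBayes of limma 3.58.1 (R 4.3.3), with Benjamini-Hochberg adjustment over 12013 genes, and calls needed a fold change of 1.5 and an adjusted p of at most 0.05. The fit was tested on simulated data with known pairs, which does not cover the choice of the pairing. Figures used matplotlib 3.10.9 (Python 3.11.15).

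A sheet name in the supplement calls the comparison paired, but no source says which arrays pair. Over the 6 possible pairings the mean correlation of deviations from group means was 0.573 for D and A, E and B, F and C (0.615, 0.665 and 0.440) and 0.211 or less for the others. Members, lists and tests were chosen with earlier results of these data known. Named beyond the members were the 3 genes of smallest p and any called gene of each list. The 5 genes most like CDKN1A and CDKN1B were named as well. SKP2 and PLK1 were chosen after their values were seen. The number of arrays limits the precision.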

Additional observations from a re-analysis of the deposited data

How the results depend on the processing

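Without the block limma called 0 members in every alternative but array quality weights (1, CDKN1B), with 3 or 4 members at an unadjusted p under 0.05. The 3 genes called in all became 200 with the replicate block, 15 with the pairs D and C, E and B, F and A, 0 with the other 4 pairings (380 to 647 genes at an unadjusted p under 0.05), 0 under neqc, under median scaling alone, with the brightest probe per gene and at a fold of 2 and an adjusted p of 0.01 (522 to 780), 18 with array weights, and 0 to 7 without 1 array.

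With the replicate block, the 2 members called became 0 with the other 5 pairings, 0 without arrays D and A, 1 without F and C, 0 after neqc, 1 with median scaling alone and 0 at the stricter thresholds, an alternative added after seeing the data, as were the block with array weights and with every probe and the differences between genes with their other probes. The 200 genes became 0, 0, 0, 0 and 15 with the other pairings, 71 without D and A, 509 without E and B, 68 after neqc, 63 with median scaling and 29 at the stricter thresholds. Of the 200, 60.0% were higher in siCCAR2, against 34.9% with median scaling, which shifted the all-gene median to -0.11, 49.3% without D and A and 48.7% without E and B. The cause was not tested.

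Signs turned in 2 members that were not called. CCND1 was -0.0558 with median scaling in both fits and between -0.0417 and 0.196 without 1 array, and with the block -0.0555 without D and A and -0.0205 without E and B. RBL2 was between -0.261 and 0.0484 without 1 array. The other 6 members tested kept their direction in all alternatives.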

Other observations

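The genes whose normalized log2 signal followed CDKN1A most closely over the 6 arrays were ANXA11, ISG15, PLAC1, STAT5A and PRR5, with Pearson r of 0.994, 0.989, 0.989, 0.985 and 0.984. ISG15, a ubiquitin-like protein induced by interferon, lay at 0.62 on the log2 scale (limma adjusted p = 0.0173 with the block), and PLAC1 at 0.56 (0.0301). Those that followed CDKN1B were PRKRA, an activator of the kinase PKR, TMEM217, ENHO, PPP1R15B, a phosphatase subunit that acts on eIF2 alpha, and GPAT2, with r of 0.993, 0.993, 0.988, 0.987 and 0.987. Their log2 fold changes were between -0.34 and -0.14 and none passed limma with the block. These correlations were picked as the highest of all genes tested, share the same arrays and normalization and include the difference between conditions, so they are a description with no test.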
